A study of Saccharomyces cerevisiae with 4 samples.

Results

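Baker's yeast can take up lactate, acetate and related small acids and burn them once glucose runs low, and 7 genes of that capacity are described here. They are JEN1, CYB2, DLD1, DLD3, ADY2, ATO2 and ATO3, picked by name as the lactate transporter, the lactate dehydrogenases with a relative, and the acetate and ammonium transporter family. All 7 were found on the array by their systematic names, each with 1 probe printed as 2 spots, among 6144 genes tested. Total RNA came from a strain labelled BY4741 carrying Msn2A6, a form of the stress activator Msn2 that protein kinase A cannot hold back, under estradiol control. The 0 min group held 2 untreated cultures and the 90 min group 2 cultures taken 90 min after 6 nM 17β-estradiol was added, all in rich glucose medium (YPD). The series calls the 2 samples of a group biological replicates, without saying more on their origin, so p-values measure the spread between these samples. The protocols differ on the cell density at addition. No untreated culture was taken at 90 min and no strain lacking Msn2A6 was given estradiol, so induction, the hormone and further growth cannot be told apart.

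Lactate enters the cell through Jen1, a proton symporter for lactate, pyruvate and acetate. In the mitochondrion the L form is oxidised to pyruvate by Cyb2 and the D form by Dld1, and both enzymes pass electrons to cytochrome c. Dld3 is a cytosolic relative of Dld1 that turns D-2-hydroxyglutarate into 2-oxoglutarate while reducing pyruvate to D-lactate. Ady2, Ato2 and Ato3 form 1 membrane protein family, in which Ady2 carries acetate and all members have been linked to ammonium export. On glucose JEN1 and ADY2 are repressed, and the question here is how transcripts of this set stood after Msn2A6 induction in cells kept in their glucose medium. The arrays measure transcripts, not the proteins.

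The induced gene itself served as a check of the labels. The MSN2 probe gave processed signals of 61.9 and 59.3 (intensity in arbitrary units) at 0 min, and of 330.1 and 261.6 at 90 min. The 90 min arrays were both higher, and the log2 change of MSN2 was 2.47 ± 0.09 (SE, n = 2 per group). The signal was low, and the deposited value table gave a change of 1.82 and a normexp correction of the background one of 1.71. Whether the probe reads the induced allele, the chromosomal gene or both was not tested. The scanner software marked 6151 to 6191 of 6256 yeast probes per array as well above background and found 0 saturated yeast spots. Replicate arrays correlated at r = 0.999 in both groups over probes, and all 4 arrays sat on 1 slide scanned in 1 session. Only 2 arrays per group limit the precision, and an exact two-sided permutation test on 2 against 2 cannot go below p = 0.333. The p-values therefore come from a model fitted to all probes together (limma), adjusted by Benjamini-Hochberg over all 6175 probes tested, with a threshold of 0.05.

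The set split. JEN1, CYB2, DLD1 and ATO2 rose, DLD3 and ATO3 fell, and ADY2, whose probe gave little signal at either time, did not pass. That is 6 of 7 called against 76.5% of all genes, with 4 of 7 risen against 30.3% and 2 of 7 fallen against 46.2%. The groups did not overlap for 6 of the 7, against 88.4% of all genes. The median log2 change of the 7 was 0.43, and that of all genes was -0.13. With most of the genome called, a call by itself says little here, and the sizes carry more. Changes of at least 2-fold were found for ATO2 upward and ATO3 downward, 1 gene each, where 8.92% of all genes rose and 3.87% fell by that much. Each change is given against the 75th percentile of its arrays. Scaling on spike-in controls shifted every log2 change by -0.45 and no scaling shifted it by -0.19. Of all genes called, 39.6% had risen with the 75th percentile, 26.7% with no scaling and 15.4% with spike-ins. With spike-in or no scaling, an offset common to an array counts as noise of every gene. The SE was then nearly the same for all 7 genes, 0.16 with spike-ins and about 0.10 with no scaling. Calls made in these settings, here and below, are therefore uncertain.

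**Figure D1:**
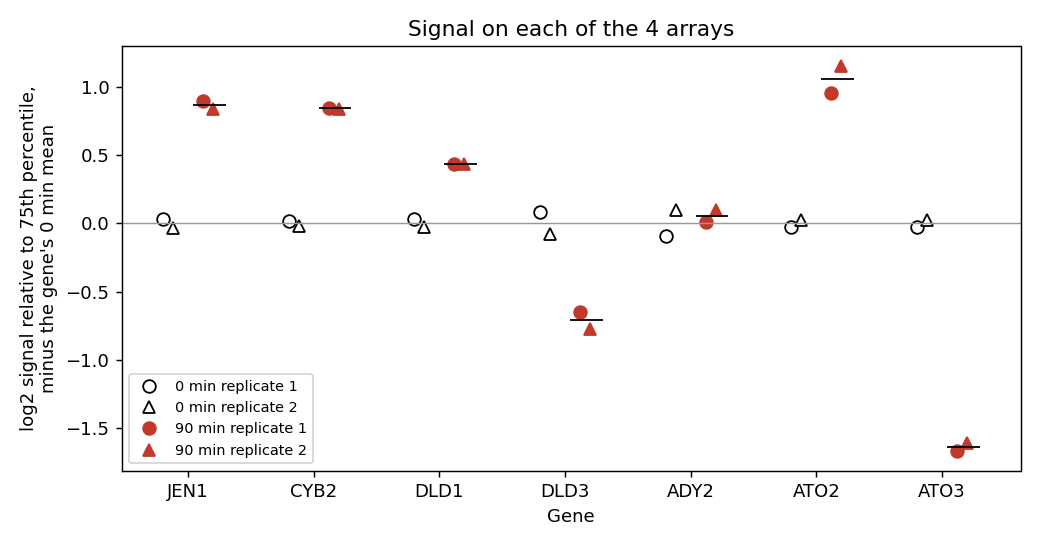
Log2 signal of the 7 genes on each of the 4 arrays, relative to the array's 75th percentile and minus the gene's own 0 min mean. Open symbols are 0 min and filled symbols 90 min, circles are replicate 1 and triangles replicate 2, and the short line is the 90 min mean. JEN1, CYB2, DLD1 and ATO2 lie above their 0 min arrays, DLD3 and ATO3 below, and the ADY2 arrays overlap.

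JEN1 (YKL217W), the lactate and pyruvate importer, gave processed signals of 678 and 658 at 0 min. At 90 min the JEN1 signals were 1132 and 1003. Both 90 min arrays were higher than both 0 min arrays. On the scaled log2 axis JEN1 went from -3.85 ± 0.05 (SD, n = 2) to -2.98 ± 0.05. The rise of 0.87 ± 0.06 (SE), or 1.82-fold, passed the threshold (limma, adjusted p = 2.53e-05). The JEN1 probe was well above its local background of 20.5 and 19.5 before induction, in glucose medium. With spike-in scaling the JEN1 change was 0.41 ± 0.16 (SE), still a rise.

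CYB2 (YML054C) encodes flavocytochrome b2, the L-lactate dehydrogenase of the mitochondrial intermembrane space. Its signals were 26888 and 26732 at 0 min, and 43834 and 40273 at 90 min. The replicate arrays lay close together, and the groups were well apart. The scaled values were 1.48 ± 0.02 (SD, n = 2) and 2.32 ± 0.0078, a rise of 0.84 ± 0.05 (SE) or 1.79-fold (limma, adjusted p = 1.94e-05). The changes of JEN1 and CYB2 differed by 0.025 ± 0.081 (SE of the difference), a gap smaller than its error. Here and below, the SE of a difference takes both genes as independent, though they were read on the same arrays. With spike-in scaling the CYB2 change was 0.39 ± 0.16 (SE).

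DLD1 (YDL174C), the D-lactate dehydrogenase of the mitochondrial inner membrane, gave signals of 29387 and 28757 at 0 min. At 90 min its signals were 35684 and 32999, higher on both arrays. The scaled values were 1.60 ± 0.04 (SD, n = 2) and 2.03 ± 0.0012, so that DLD1 rose by 0.43 ± 0.06 (SE), or 1.35-fold (limma, adjusted p = 0.000465). This was the smallest rise among the 4 that passed, and its direction rests on the scaling. With no scaling the DLD1 change was 0.24 ± 0.10 (SE), and with spike-in scaling it was -0.020 ± 0.16. CYB2 exceeded DLD1 by 0.41 ± 0.08 and JEN1 exceeded DLD1 by 0.43 ± 0.08 on the log2 scale, gaps that scaling by 1 constant per array does not move.

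DLD3 (YEL071W), the cytosolic transhydrogenase, moved the other way. Its signals were 135816 and 123506 at 0 min. They were 75141 and 63821 at 90 min, both below the 0 min arrays. The scaled values were 3.75 ± 0.11 (SD, n = 2) and 3.04 ± 0.09, and the log2 change was -0.71 ± 0.08 (SE), a 1.63-fold fall (limma, adjusted p = 0.000222). Among the scalings tried the change ran from -1.16 with spike-ins to -0.67 with scaling on the median, a fall in each. The mitochondrial enzyme DLD1 and the cytosolic DLD3 differed by 1.14 ± 0.10 in their changes. Dld3 makes D-lactate in the reaction described for it. The 3 genes of lactate import and oxidation rose, DLD1 not with spike-in scaling. Whether the fall of DLD3 is linked to these rises was not tested.

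In the acetate and ammonium transporter family, the 3 members gave 3 different pictures. ADY2 (YCR010C, also called ATO1), the acetate transporter, gave signals of 34.7 and 40.2 at 0 min and of 34.1 and 33.6 at 90 min. Its median spot signal was 63 to 73.5 over a local background of 18 to 20.5, and the scanner software still marked it well above background on all 4 arrays. The groups overlapped, and the log2 change was 0.052 ± 0.079 (SE, limma, adjusted p = 0.571). The sign turned with quantile normalization (-0.10), in the deposited value table (-0.10), with no scaling (-0.14) and without replicate 1 at 0 min (-0.043). With spike-in scaling the ADY2 change was -0.40 ± 0.16 (SE), and the call made there is uncertain. No direction can be given for ADY2 from these arrays.

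ATO2 (YNR002C, also called FUN34), the close relative of ADY2, gave signals of 878 and 928 at 0 min, and of 1587 and 1691 at 90 min. Both 90 min arrays stood clearly above both 0 min arrays. The scaled values were -3.41 ± 0.04 (SD, n = 2) and -2.36 ± 0.14. ATO2 rose by 1.05 ± 0.08 (SE), or 2.08-fold (limma, adjusted p = 3.84e-05), the largest rise of the set. Its 2 spots on an array differed by 0.22 to 0.33 log2, more than those of the other 6 genes on the same array. When single arrays were left out, the ATO2 change ran from 0.95 to 1.15. ADY2 and ATO2 are similar in sequence and the probe sequences were not used here, so how far each probe reads only its own transcript was not tested.

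ATO3 (YDR384C), the third of the family and linked to ammonium export, gave signals of 4786 and 5043 at 0 min. At 90 min they were 1402 and 1354, under both untreated arrays by a wide margin. The scaled values were -0.97 ± 0.04 (SD, n = 2) and -2.61 ± 0.04. The log2 change of -1.64 ± 0.06 (SE), a 3.12-fold fall, was the largest change of the set in either direction (limma, adjusted p = 1.43e-06). Ranked from the strongest fall to the strongest rise, ATO3 stood at percentile 0.505 of all genes tested and ATO2 at percentile 91.6. The changes of ATO2 and ATO3 lay 2.69 ± 0.10 apart. Those of ADY2 and ATO3 lay 1.69 ± 0.10 apart, and those of ATO2 and ADY2 1.00 ± 0.11 apart. Both gaps with ADY2 rest on its dim probe, for which no direction could be given. Across the scalings and the deposited value table the ATO3 change ran from -2.09 to -1.60.

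**Figure D2:**
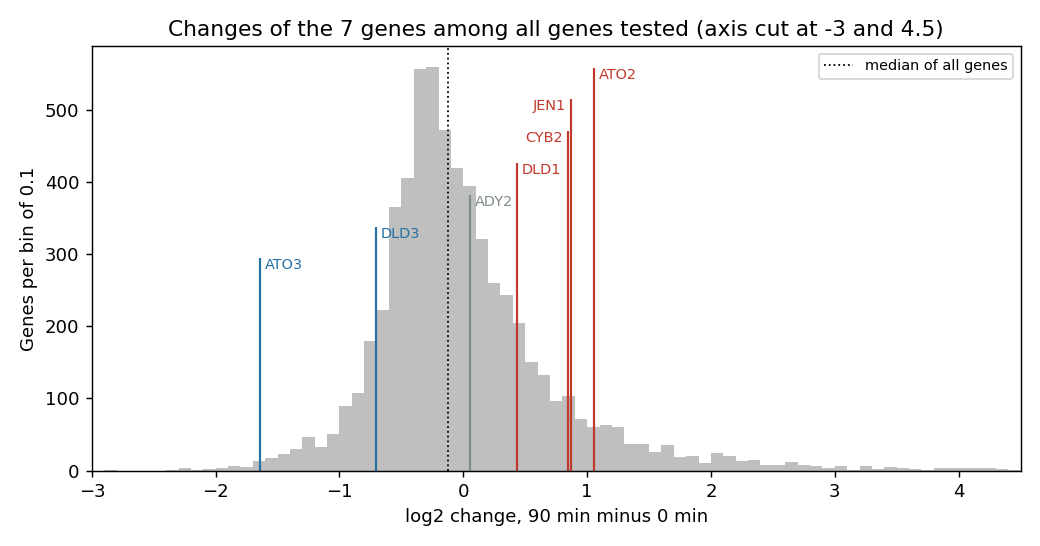
Histogram of the log2 change from 0 to 90 min over the 6144 genes tested, in bins of 0.1 with the axis cut at both ends, and the 7 genes as vertical lines (red rose, blue fell, grey did not pass). The line heights carry no value. ATO3 lies in the far lower tail at -1.64, and JEN1, CYB2 and ATO2 lie on the upper shoulder between 0.84 and 1.05.

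In order of change the 7 genes ran ATO2 (1.05), JEN1 (0.87), CYB2 (0.84), DLD1 (0.43), ADY2 (0.052), DLD3 (-0.71) and ATO3 (-1.64). JEN1 and CYB2 did not differ beyond their errors. For each gene the closest patterns were sought, as the lowest root mean square gap over the 4 arrays after subtracting the 0 min mean. JEN1 was closest to YML003W and SPB4, CYB2 to MDH1 and HYM1, and DLD1 to ROY1 and HOB2. DLD3 was closest to RMD9 and PHO13, ADY2 to PFY1 and SOP4, ATO2 to FMP10 and TVP15, and ATO3 to HIF1 and PLB2. These gaps were 0.0063 to 0.034 log2. With 2 conditions many genes share a pattern, and between 9 (ATO3) and 122 (DLD1) genes lay within 0.05 of a member.

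**Figure D3:**
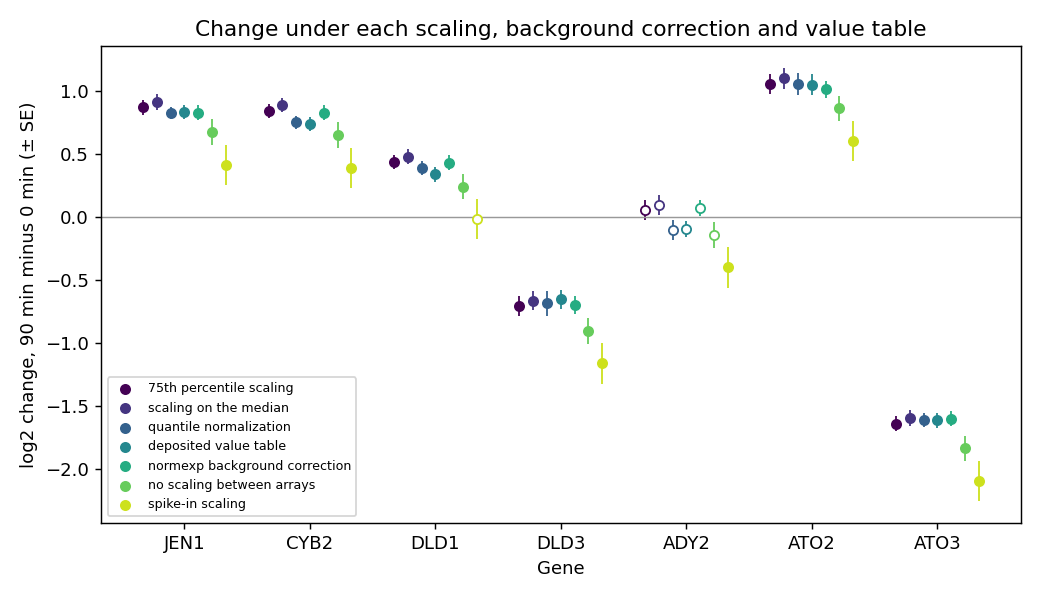
Log2 change of the 7 genes from 0 to 90 min (points, with SE as bars) under 7 ways of scaling, correcting or taking the values. Filled points passed the threshold and open points did not. The 6 other genes keep their sign in every setting drawn except DLD1 with spike-in scaling (-0.020), and ADY2 falls on both sides of 0.

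Genes listed as relatives of the set were measured beside it. Of the 6 relatives listed, 3 rose and 2 fell, against 30.3% risen and 46.2% fallen among all genes. Their median log2 change was 0.54, or 0.082 with spike-in scaling. MCH2 (YKL221W), a homologue of mammalian monocarboxylate permeases, rose from signals of 72.3 and 72.0 to 727.7 and 629.2, a change of 3.42 ± 0.06 (SE) or 10.73-fold (limma, adjusted p = 1.09e-07). The 0 min signal of MCH2 was dim, and its change was 2.90 in the deposited value table and 2.66 after normexp. MCH4, another homologue of that family, rose by 2.09 ± 0.07, or 4.25-fold. Both rises exceeded that of JEN1, a member known to carry lactate. Whether MCH2 or MCH4 carries lactate was not tested here. ESBP6, also of that family, had a change of 0.92, and MCH5, the riboflavin transporter, had one of -0.82. DLD2, the mitochondrial relative of DLD3, had a change of -0.31, and MCH1 (0.15) did not pass, though it did as a rise with quantile normalization, scaling on the median and in the deposited value table (0.18 to 0.20). ESBP6, MCH5, DLD2 and MCH1 were picked after their values were seen.

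Of 11 genes that act on the electrons and the pyruvate or acetate from lactate, 6 rose and 3 fell, with a median of 0.25. Among all genes 30.3% rose, 46.2% fell and 76.5% were called either way, and 9 of 11 is near the last share. With spike-in scaling 3 rose and 5 fell, at a median of -0.20. Cytochrome c, the electron acceptor of Cyb2 and Dld1, is encoded by a pair of genes that moved in opposite directions. CYC7, the minor cytochrome c gene, rose from signals of 4645 and 5043 to 71539 and 70383, a change of 4.07 ± 0.06 (SE, 16.8-fold). CYC1, the main one on aerobic growth, fell from 40202 and 43802 to 12030 and 12514, a change of -1.58 ± 0.08 (2.99-fold). The acetyl-CoA synthetases parted in a similar way. ACS1, the glucose-repressed enzyme, rose by 1.71 ± 0.08 (3.28-fold), and ACS2, the enzyme needed on glucose, had a change of -1.50 ± 0.06 (2.83-fold lower). The directions of these 4 genes held under every scaling tried. MPC3, the mitochondrial pyruvate carrier subunit of respiring cells, had a change of 1.23. Its fermentative counterpart MPC2 had a change of -0.13 and did not pass, but it passed as a fall with quantile normalization, with no scaling, with spike-ins and in the deposited value table (-0.58 to -0.16). The gluconeogenic genes PCK1 and FBP1 had small changes of 0.25 and 0.48, and with spike-in scaling these were -0.20 and 0.023. The FBP1 change was 0.21 with quantile normalization and 0.18 in the deposited value table. With no scaling the PCK1 change was 0.058 and did not pass. MPC3, MPC2, PCK1 and FBP1 were picked after their values were seen.

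**Figure D4:**
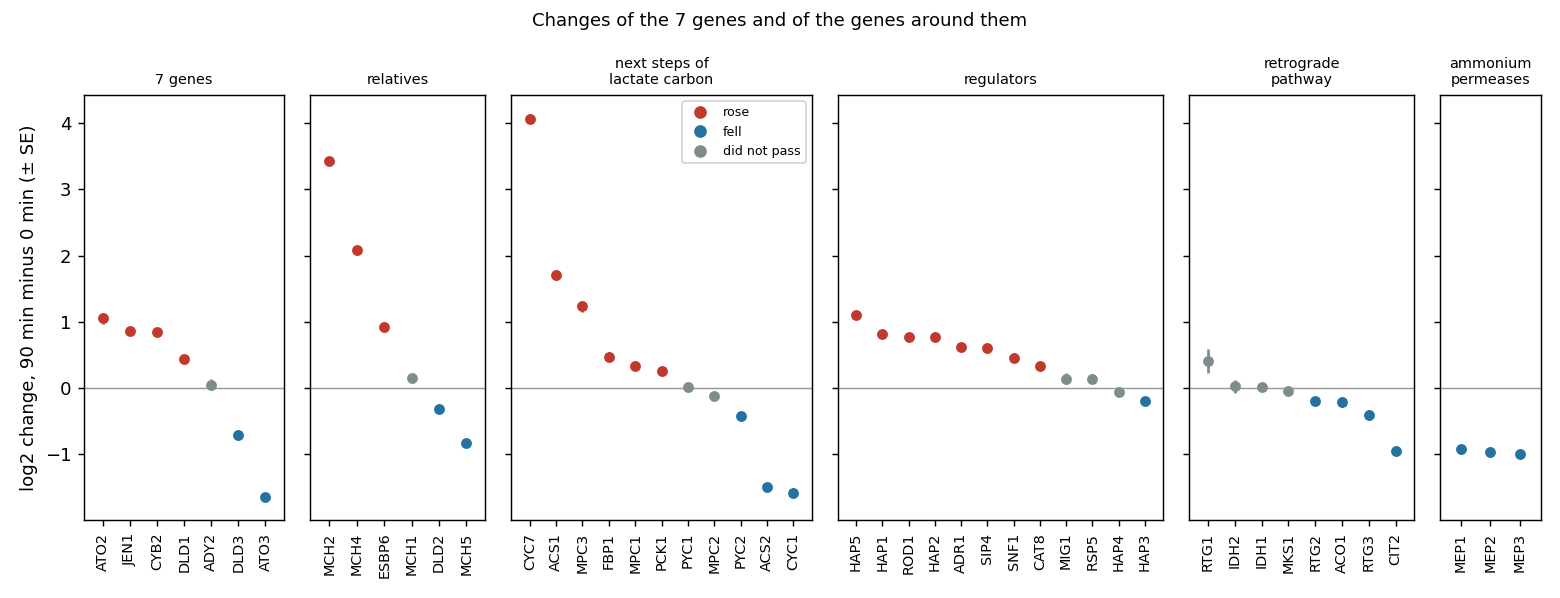
Log2 change from 0 to 90 min (points, with SE as bars, often smaller than the point) of the 7 genes and of 5 lists of related genes, coloured by whether the gene rose, fell or did not pass. CYC7 (4.07) and MCH2 (3.42) exceed all 7 members, and the 3 ammonium permeases lie between -0.99 and -0.92.

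Among 12 regulators that act on the lactate genes or on the Jen1 protein, 8 rose and 1 fell, with a median of 0.53, where 30.3% of all genes rose and 46.2% fell. With spike-in scaling the count was 2 risen and 2 fallen, at a median of 0.080, so the direction of this list rests on the scaling. HAP5, a subunit of the activator of respiratory genes that binds CCAAT, rose by 1.11 ± 0.06 (SE, 2.16-fold). HAP1, the haem-dependent activator of CYB2 and of the cytochrome c genes, rose by 0.82 ± 0.06 (1.77-fold). In S288C and strains derived from it HAP1 carries a transposon insertion that weakens it, as background. HAP3 fell, with a change of -0.20, a call lost with scaling on the median (limma, adjusted p = 0.0506) and in the deposited value table (limma, adjusted p = 0.054). HAP4, the regulatory subunit of the same complex, had a change of -0.057 and did not pass. It passed as a fall with no scaling (-0.25) and with spike-ins (-0.51), where calls are uncertain. MIG1, the glucose repressor, had a change of 0.14 and did not pass. RSP5, the ubiquitin ligase that acts on Jen1, also had one of 0.14 and did not pass. It passed as a rise with scaling on the median, after normexp and in the deposited value table (0.18 to 0.19). ROD1, also on this list, rose by 0.78 ± 0.06 (SE, 1.72-fold), and with spike-in scaling its change was 0.33 and did not pass. The list mixes activators with MIG1, RSP5 and ROD1, so its count gives no direction for the lactate genes. CAT8 and ADR1, the activators of growth on non-fermentable carbon, had changes of 0.33 and 0.62, and with spike-in scaling of -0.12 and 0.17. HAP3, HAP4, MIG1, RSP5, ROD1, CAT8 and ADR1 were picked after their values were seen.

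DLD3 is a known target of the retrograde pathway, by which mitochondrial state adjusts nuclear genes through Rtg1 and Rtg3. Of 8 other genes of that pathway, 4 fell and 0 rose (limma, also 0 at an unadjusted p under 0.05), with a median of -0.12. That is close to all genes, of which 46.2% fell and whose median was -0.13. With spike-in scaling 7 fell, and with scaling on the median 1 rose and 2 fell. CIT2, the peroxisomal citrate synthase and usual reporter of the pathway, fell from signals of 67526 and 70519 to 32015 and 30296. Its change of -0.95 ± 0.06 (SE, 1.94-fold lower) had the direction of DLD3. RTG1 had a change of 0.41 ± 0.18 and did not pass, with 90 min signals of 356 and 215. It passed as a rise with scaling on the median (0.45) and after normexp (0.36). The other genes that fell were RTG3 (-0.41), ACO1 (-0.20) and RTG2 (-0.19), picked after their values were seen. The calls of ACO1 and RTG2 were lost with scaling on the median, and that of ACO1 also with quantile normalization.

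The ammonium permeases Mep1, Mep2 and Mep3 import what the Ato family is linked to exporting. All 3 genes fell, in each scaling tried, where 46.2% of all genes fell, with changes of -0.92 ± 0.06 (SE) for MEP1, -0.96 ± 0.08 for MEP2 and -0.99 ± 0.07 for MEP3. MEP2, the high-affinity permease, went from signals of 74527 and 69549 to 31495 and 33040. MEP3 went from 14121 and 15258 to 6443 and 6499. ATO3 thus fell beside the importers, and ATO2 rose.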

How the data were processed

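The 4 samples were measured in 1 colour (Cy3) on Agilent yeast arrays. The deposited scanner files hold spot intensity from Agilent Feature Extraction 10.7.3.1, per the file headers, and the processed intensity is background-subtracted and detrended. The deposited value table holds log2 values, for which limma is named, with no version, per the submitters' processing notes. Its steps are unknown, its column medians were 11.65 to 11.67, and its values correlated with log2 scanner signal at r = 0.993 to 0.994 over probes.

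Log2 processed signal minus the 75th percentile of the array's yeast spots was averaged over the spots of a probe, without the 3 to 10 outlier spots per array. Probes that either group had well above background on both of its arrays (6175 of 6256) were fitted with limma 3.58.1 in R 4.3.3 (lmFit, eBayes, two-sided). The brightest probe stood for a gene. Names came from a RefSeq table by locus tag (5748 probes) or accession (17), and 491 probes had no match there. The array design used sacCer2 and the table R64, so no positions are given. The pipeline was tested on simulated data. Figures used Python 3.11.15 and matplotlib 3.10.9.

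The members, lists and tests were chosen with earlier results of these data known. All 7 members were named, and from each list up to 4 called genes with a log2 change of at least 1, or otherwise the 2 largest. Alternatives were other scalings, normexp with an offset of 50 (on median spot signal, not the planned mean), the deposited value table, other filters, priors, probe means and thresholds, a replicate block, and leaving out each array. A planned motif search in promoters was not run.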

Additional observations from a re-analysis of the deposited data

How the results depend on the processing

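JEN1, CYB2, DLD3, ATO2 and ATO3 kept their direction under all 16 alternatives run on each. In that order, their log2 changes were 0.41 to 0.91, 0.39 to 0.89, -1.16 to -0.63, 0.60 to 1.15 and -2.09 to -1.60. DLD1 kept its direction under 15 of 16, and was -0.020 with spike-in scaling. ADY2 was -0.10 with quantile normalization, -0.14 with no scaling, -0.40 with spike-in scaling and -0.10 in the deposited value table, and ran from -0.043 (without replicate 1 at 0 min) to 0.15 when single arrays were left out. With a log2 change of at least 1, the counts were 1 member risen and 1 fallen, and 548 genes risen and 238 fallen in all. With spike-in scaling 3 members rose and 3 fell, and 745 of all genes rose and 4091 fell, against 1860 and 2840 in the main result. With spike-in or no scaling, an offset common to an array is counted as noise of every gene. Those counts, and the calls of single genes in these settings, are therefore uncertain. With the replicate number as a block, 4 members rose and 2 fell, with 1952 and 2974 of all genes, and no member's call changed. The deviations of same-numbered arrays correlated at r = 0.203 over probes, and the labels do not say what a number marks. The dim ADY2 probe limits what can be said of that gene.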

Other observations

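The genes next to the 7 in RefSeq order did not share one direction with them. SRY1, beside JEN1, had a log2 change of -0.59 ± 0.06 (SE). URA1, on the other side of JEN1, had one of -0.12 ± 0.05 and did not pass. SPC2, beside CYB2, had a change of -0.31 ± 0.06. The neighbours of DLD1 were AIR2 (0.28 ± 0.06) and PAR32 (-0.58 ± 0.06), and those of ADY2 were RVS161 (0.29 ± 0.06) and ADP1 (0.87 ± 0.07). Beside ATO2, CIT1 (0.04 ± 0.05) and RPC34 (-0.11 ± 0.09) did not pass, and beside ATO3 the changes were -0.23 ± 0.07 for NKP1 and -0.26 ± 0.07 for EFT2. The widest gap was next to DLD3, which fell by 0.71 while DSF1, a homologue of mannitol dehydrogenases, rose by 1.32 ± 0.06 (limma, adjusted p = 5.11e-06). DSF1 has a nearly identical copy in the genome, so its signal is uncertain. RMD6, on the other side of DLD3, had a change of -0.05 ± 0.08 and did not pass. These neighbours were looked up after the members' values were seen.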
